A study of Rattus norvegicus with 6 samples.

Results

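Aminoacyl-tRNA synthetases, the enzymes that load each tRNA with its amino acid, were followed in cultured MSCs (mesenchymal stem cells, here from rat bone marrow) held in a stiff or a soft hydrogel. Members were the protein-coding rows of the deposited gene table whose description names a tRNA synthetase or a tRNA ligase, which gave 45 of 33589 rows, among 22250 protein-coding ones. By description, 41 of the 45 were enzymes: 23 cytosolic (2 of them annotated only as like another synthetase), 17 mitochondrial (1 of them annotated that way) and Yars2, whose description states no compartment. The remaining 4 carry the word without being synthetases: the scaffold proteins Aimp1 and Aimp2, and Aarsd1 and Prorsd1, which resemble the editing domains of the alanine and proline enzymes. The rule used annotation and no measured value, but it was chosen with earlier results of these data known.

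PolyA RNA came from 3 libraries of MSCs kept in stiff SA hydrogel of 18 kPa and 3 of MSCs kept in soft SA hydrogel of 2 kPa, all for 48 h and in the same low-glucose medium with serum and antibiotics. The question was how the stiffness of the gel affects expression. The labels give no strain, age or number of animals and do not say whether replicates were separate cultures. The p-values therefore cover the spread among these 6 libraries only, and that spread may be technical. The design text speaks of quadruplicates, of which 3 libraries per group were analysed here.

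Each amino acid has its own synthetase, and the enzymes fall into class I and class II by the fold of their catalytic domain. Cytosolic protein synthesis and mitochondrial protein synthesis mostly use separate enzymes from separate nuclear genes, while Gars and Kars each supply both compartments. Several cytosolic enzymes sit together in the multisynthetase complex, held by Aimp1, Aimp2 and Eef1e1. When amino acids run short, uncharged tRNA activates the kinase GCN2 (Eif2ak4), and the transcription factor ATF4 then induces amino acid transporters, biosynthetic enzymes and a set of cytosolic synthetases.

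FPKM is a read density per kilobase of gene after scaling for library size. The reads recovered from it numbered between 14966354 and 16711527 per library. Averaging 1 FPKM or more, 12713 genes were tested with limma on log2(FPKM + 1), and 182 of them (1.43%) passed at a Benjamini-Hochberg adjusted p under 0.05. The voom method on the recovered reads called 2.49%. Soft replicate 1 had 2.15% of its reads in genes of the mitochondrial chromosome, the lowest share of the 6 libraries, whose highest was 3.33%. The FPKM of a library summed to more in the stiff group, and scaling all libraries to the same sum put the median log2 fold change of all genes at -0.04, in place of 0.0013. All 10 stromal markers summed to between 1953 and 2035 FPKM in stiff and between 1861 and 1941 FPKM in soft libraries. Lepr stayed below 1 FPKM, and the other 9 passed the level filter. Of these 9, 6 had a log2 fold change above 0 and 3 below. Their median was 0.01, and none passed limma's test. Thy1 was at 598.8 ± 34.7 FPKM in stiff and 499.2 ± 28.4 FPKM in soft libraries (SD, n = 3 each, 0.26, limma adjusted p = 0.115). Thy1 and Itgb1 (0.18) were parted with stiff higher and Pdgfrb (-0.07) with stiff lower, and the rest overlapped between groups. The 7 leukocyte markers found, of 8 listed, summed to between 215 and 217 FPKM in stiff and between 221 and 223 FPKM in soft libraries, but 3 of the 7 passed, in opposite directions. Cd68 fell to 27.7 ± 1.52 FPKM in stiff, against 40.4 ± 3.47 FPKM in soft libraries (SD, n = 3 each, log2 fold change -0.53, limma adjusted p = 0.0246). Cd53 fell to 8.20 ± 0.439 FPKM in stiff, against 12.6 ± 1.15 FPKM in soft libraries (-0.56, limma adjusted p = 0.0271). Adgre1 rose to 84.9 ± 2.24 FPKM in stiff, against 69.0 ± 1.85 FPKM in soft libraries (0.30, limma adjusted p = 0.0404). Each of the 3 lost its call in at least 5 of the 6 fits that left out a library, with limma's adjusted p reaching 0.163. Tyrobp was parted with stiff lower (-0.26, limma adjusted p = 0.261), and Cd14, Csf1r and Ptprc overlapped between groups. Endothelial markers summed to at most 0.410 FPKM in any library and the 3 globin genes were at 0. Whether these marker differences have a part in the synthetase values was not tested, and in bulk RNA fewer cells of a type and less RNA per cell cannot be told apart.

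Cytosolic synthetases lay slightly higher in stiff gel almost throughout, and mitochondrial ones did not. Of 22 cytosolic genes over the level filter, 20 had a log2 fold change above 0, with a median of 0.15, whereas 6 of 15 mitochondrial genes did, with a median of -0.03. Over all tested genes 50.4% lay above 0 and the median was 0.0013. The single-gene changes were small: 1 cytosolic enzyme, Gars, rose, 1 gene annotated as like Iars fell, and no mitochondrial enzyme passed the test in either direction. Against this, 1.01% of all tested genes were called higher and 0.425% lower, so the count of called members is too small to set the family apart. At equal FPKM sums 17 of 22 cytosolic and 3 of 15 mitochondrial genes lay above 0, with medians of 0.10 and -0.07, and after quantile normalization 18 and 6 did; Aars, Kars and Farsa were the cytosolic enzymes that turned at equal sums, and Kars and Farsa those after quantile normalization.

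**Figure D1:**
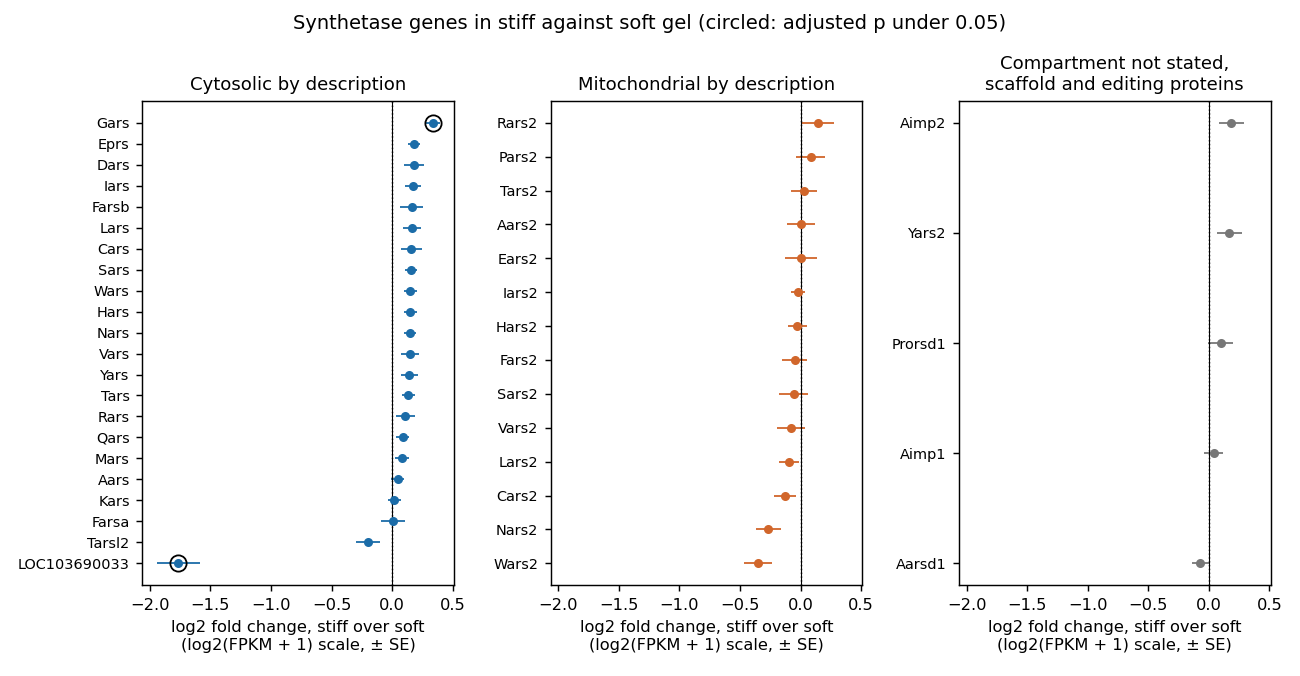
Log2 fold change, stiff over soft, with its standard error for 41 of the 42 members over the level filter, by compartment (x axis: log2(FPKM + 1) scale; dotted line: median of all tested genes). The cytosolic genes lie right of 0 except Tarsl2 and LOC103690033, the mitochondrial ones lie on both sides, and the circled Gars and LOC103690033 passed the test.

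Gars, the glycine enzyme, which serves both cytosol and mitochondria, had 53.5, 57.6 and 58.6 FPKM in stiff and 43.4, 46.7 and 43.9 FPKM in soft libraries. Every stiff library lay above every soft one, and the means of 56.6 ± 2.70 FPKM in stiff and 44.7 ± 1.74 FPKM in soft libraries (SD, n = 3 each) gave a ratio of 1.27. The log2 fold change was 0.33 (SE 0.0586, limma adjusted p = 0.0471). The call sits at the edge of the threshold: it was lost in each of the 6 fits that left out a library, stiff or soft, where the adjusted p lay between 0.0804 and 0.194 and the log2 fold change between 0.31 and 0.37. It was also lost at equal FPKM sums (0.29, limma adjusted p = 0.0661) and after quantile normalization (0.30, limma adjusted p = 0.0622). Gars (ENSRNOG00000011052) lies on chromosome 4 from 85235172 to 85276044 on the plus strand, as the table gives it without naming a build.

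Next by unadjusted p came 7 more cytosolic enzymes that missed the adjusted threshold, all higher in stiff gel. Over all tested genes 8.46% had an unadjusted p under 0.05 and a higher stiff level, against 8 of 22 cytosolic genes and 0 of 15 mitochondrial ones. Eprs, a fused enzyme that charges glutamate and proline tRNAs, had 62.5, 62.0 and 58.5 FPKM in stiff and 53.5, 52.8 and 54.8 FPKM in soft libraries (log2 fold change 0.18, SE 0.0510, limma adjusted p = 0.165). Sars, the serine enzyme, had 59.9, 56.9 and 59.0 FPKM in stiff and 53.9, 51.5 and 52.2 FPKM in soft libraries (0.15, SE 0.0497, limma adjusted p = 0.210, and 0.0451 with array weights). In both genes the lowest stiff library exceeded the highest soft one.

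Nars, which charges asparagine tRNA, had 59.7, 58.0 and 60.8 FPKM in stiff and 51.4, 55.1 and 54.6 FPKM in soft libraries (log2 fold change 0.15, limma adjusted p = 0.248). Hars, the histidine enzyme, had 37.5, 34.9 and 36.5 FPKM in stiff and 33.2, 32.7 and 31.9 FPKM in soft libraries (0.15, limma adjusted p = 0.246). The groups were again apart in both, with soft replicate 2 the highest soft library for Nars and soft replicate 1 for Hars. Wars, the tryptophan enzyme, had 17.9, 17.1 and 17.0 FPKM in stiff and 15.2, 15.6 and 15.6 FPKM in soft libraries (0.15, limma adjusted p = 0.264). Tars, the threonine enzyme, had 30.8, 29.3 and 28.9 FPKM in stiff and 27.2, 27.1 and 26.6 FPKM in soft libraries (0.13, limma adjusted p = 0.298). In both the groups were apart, and the soft libraries lay closer together than the stiff ones.

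**Figure D2:**
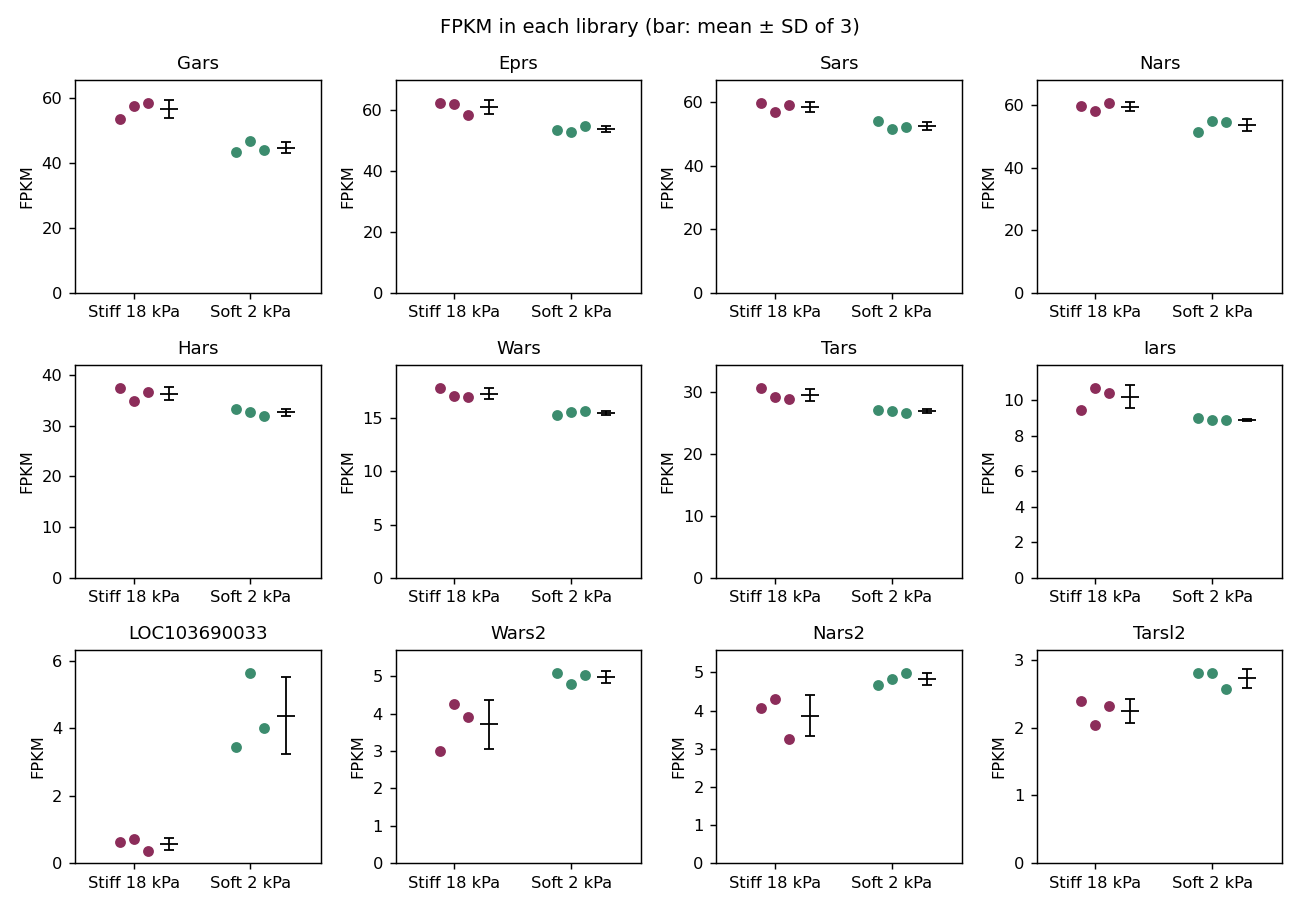
FPKM (y axis, from 0) in each of the 3 stiff and 3 soft libraries for 12 members, with the mean and SD beside the points. In Gars, Eprs, Sars, Nars, Hars, Wars, Tars and Iars the stiff libraries lie above the soft ones, and in LOC103690033, Wars2, Nars2 and Tarsl2 they lie below.

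Across the whole cytosolic set the 3 stiff libraries lay above the 3 soft ones in 11 of 22 genes and below them in 2, against 11.7% and 10.9% of all tested genes. Counting only genes as abundant as the 20 named cytosolic enzymes other than Tarsl2, between 9.55 and 57.4 FPKM on average, 11.0% were parted with stiff higher, 52.2% had a log2 fold change above 0 and the median was 0.0061. The 11 were Gars, Eprs, Sars, Nars, Hars, Wars, Tars, Iars, Qars, Dars and Yars. Iars was counted on its own reads. Summed with the reads of LOC103690033, the gene annotated as like it, the groups overlapped (log2 fold change 0.04). This limit applies to every count here that includes Iars. Summed over the 21 cytosolic enzymes without the genes annotated as like another, FPKM came to 730.3, 724.9 and 738.5 in stiff and to 667.1, 664.3 and 663.6 in soft libraries. The stiff mean of 731.2 ± 6.86 was 1.10 times the soft mean of 665.0 ± 1.85 FPKM (SD, n = 3 each). Part of this ratio is scaling, since all genes together summed to 467372, 468966 and 478304 FPKM in stiff libraries. In soft libraries they summed to 452787, 456786 and 457306 FPKM. The ratio and the counts of parted genes are on deposited FPKM and were not recomputed at equal sums. At equal sums the cytosolic median log2 fold change was 0.10.

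The 3 most abundant cytosolic enzymes were Eprs, Aars and Nars, and none of the 3 passed. Aars, the alanine enzyme, had 60.0, 56.1 and 58.2 FPKM in stiff and 59.1, 54.9 and 54.8 FPKM in soft libraries (log2 fold change 0.04, SE 0.0554, limma adjusted p = 0.759, and -0.0038 at equal FPKM sums). Its groups overlapped, with soft replicate 1 above 2 of the stiff libraries. Kars, the lysine enzyme that also serves mitochondria, averaged 48.0 ± 1.95 FPKM in stiff and 47.4 ± 1.73 FPKM in soft libraries (0.02), unlike Gars, the other enzyme shared by both compartments. Of the subunits of the phenylalanine enzyme, Farsa was at 31.4 ± 2.72 FPKM in stiff and 31.4 ± 3.62 FPKM in soft libraries (0.0042). Farsb was at 20.3 ± 2.42 FPKM in stiff and 17.9 ± 1.14 FPKM in soft libraries (0.16). The difference between the members of these pairs was not tested. Tarsl2, a second cytosolic threonine enzyme, had lower means in stiff gel, at 2.39, 2.04 and 2.31 FPKM in stiff and 2.80, 2.81 and 2.57 FPKM in soft libraries (-0.20, SE 0.0990, limma adjusted p = 0.391), on 63 to 90 reads per library.

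In all, 13 cytosolic genes had an unadjusted p of 0.05 or more, with log2 fold changes between -0.20 and 0.18 and adjusted p between 0.346 and 0.990. Their largest was Dars, the aspartate enzyme, at 38.8 ± 0.272 FPKM in stiff and 34.3 ± 3.59 FPKM in soft libraries, where soft replicate 1 stood low at 30.2 FPKM. The 8 enzymes of the multisynthetase complex (Dars, Eprs, Iars, Kars, Lars, Mars, Qars and Rars) all lay above 0, with a median of 0.13, except Kars under either rescaling of the libraries. None passed limma's test or voom, and 2, Eprs and Iars, had an unadjusted p under 0.05 with stiff higher, where 8.46% of all tested genes did. The scaffold Aimp1 was at 24.8, 29.7 and 30.2 FPKM in stiff and 26.8, 28.0 and 27.3 FPKM in soft libraries (0.04, and -0.0088 at equal FPKM sums). Aimp2 was at 27.2, 27.0 and 27.9 FPKM in stiff and 26.8, 20.3 and 25.1 FPKM in soft libraries (0.19). Eef1e1 was at 8.59, 9.67 and 8.95 FPKM in stiff and 7.25, 8.69 and 7.86 FPKM in soft libraries (0.17). Aimp1 and Eef1e1 overlapped between groups, and Aimp2 did not, with soft replicate 1 just below the stiff libraries. By catalytic fold the medians were alike: 9 of 9 class I genes lay above 0 with a median of 0.14, and 10 of 11 class II genes did, with a median of 0.15, or 9 and 7 at equal FPKM sums. Neither list held Eprs, which has a domain of each class, or LOC103690033, annotated as like the isoleucine enzyme (-1.77).

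LOC103690033, annotated as like the cytosolic isoleucine enzyme, gave the family's largest change. It had 0.625, 0.700 and 0.358 FPKM in stiff and 3.45, 5.65 and 4.01 FPKM in soft libraries, a stiff mean 0.128 times the soft mean (log2 fold change -1.77 on the log2(FPKM + 1) scale, SE 0.177, limma adjusted p = 0.00747). The call held in all 6 fits that left out a library, with adjusted p between 0.0137 and 0.0488. It rests on 14, 17 and 9 reads in stiff and 87, 139 and 98 reads in soft libraries, and its level is uncertain if it shares sequence with Iars, since no source used here says how multiply mapped reads were handled; the sequences were not compared. It lies on chromosome 17 from 14541949 to 14557792, and Iars on the same chromosome from 15355529 to 15402649, both on the minus strand.

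Iars itself, the isoleucine enzyme, lay slightly higher in stiff gel, with 9.47, 10.7 and 10.4 FPKM in stiff and 8.97, 8.88 and 8.87 FPKM in soft libraries (log2 fold change 0.17, SE 0.0684, limma adjusted p = 0.293). Reads of LOC103690033 made up 1.70%, 1.68% and 0.892% of the reads of both genes in stiff and 9.13%, 14.2% and 10.6% in soft libraries. Added together, both genes had 55.1, 62.6 and 60.4 RPM (recovered reads scaled to library depth) in stiff and 57.1, 60.4 and 57.7 RPM in soft libraries. The summed groups overlapped, and a fit with the reads of both genes summed, chosen after seeing the data, gave a log2 fold change of 0.04 (SE 0.0689, limma adjusted p = 0.861). The values of each gene alone depend on how reads were assigned in the authors' processing, and whether the genes share reads was not tested.

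**Figure D3:**
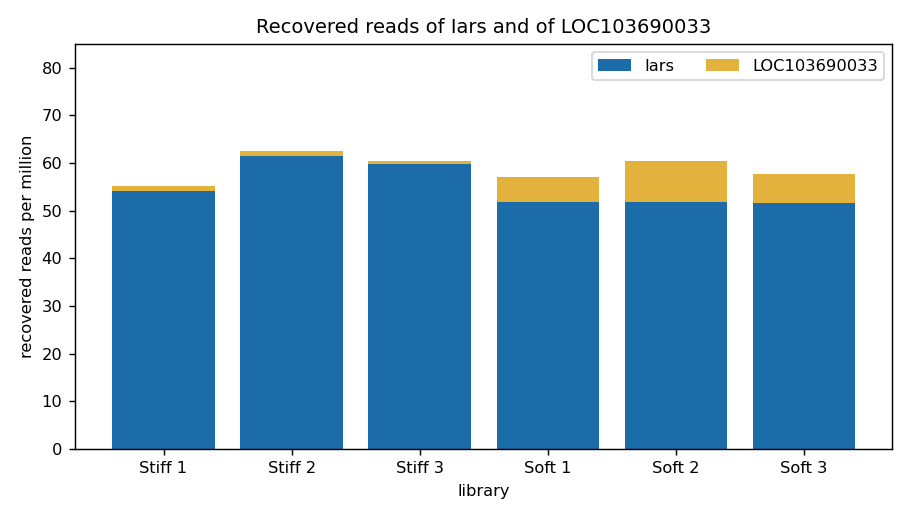
Recovered reads scaled to library depth (RPM, y axis) of Iars and of LOC103690033, stacked, in each library. The stack reaches 55.1 to 62.6 in stiff and 57.1 to 60.4 in soft libraries, while the upper share is thin in the stiff libraries and thicker in the soft ones.

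Mitochondrial enzymes were lower in level and lay on both sides of 0. Over 15 genes the median level was 4.98 FPKM, against 31.1 FPKM for the cytosolic genes, and among all genes in the level range of the mitochondrial enzymes 46.0% lay above 0 with a median log2 fold change of -0.01. Wars2, the mitochondrial tryptophan enzyme, had 2.99, 4.25 and 3.90 FPKM in stiff and 5.09, 4.78 and 5.03 FPKM in soft libraries (-0.35, SE 0.116, limma adjusted p = 0.220). Nars2, the mitochondrial asparagine enzyme, had 4.07, 4.29 and 3.25 FPKM in stiff and 4.68, 4.82 and 4.99 FPKM in soft libraries (-0.27, SE 0.103, limma adjusted p = 0.288). These were the 2 mitochondrial genes whose groups were parted, both with stiff lower, where 10.9% of all genes were, and the 2 with an unadjusted p under 0.05 in that direction, where 6.95% of all genes were. They rest on between 88 and 185 reads per library.

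The 3 most abundant mitochondrial enzymes had small fold changes and did not pass. Iars2, for isoleucine, had 20.8, 21.6 and 20.9 FPKM in stiff and 21.3, 20.8 and 22.2 FPKM in soft libraries (log2 fold change -0.02). Tars2, for threonine, had 13.5, 11.6 and 13.4 FPKM in stiff and 13.5, 10.8 and 13.5 FPKM in soft libraries (0.03, and -0.016 at equal FPKM sums). Cars2, for cysteine, had 6.70, 6.69 and 6.95 FPKM in stiff and 8.26, 7.72 and 6.57 FPKM in soft libraries (-0.13). In all 3 the groups overlapped, and in Tars2 replicate 2 was the lowest of both groups. The 13 mitochondrial genes with an unadjusted p of 0.05 or more ran from -0.13 to 0.15. Yars2, the tyrosine enzyme whose description gives no compartment, was at 4.71 ± 0.448 FPKM in stiff and 4.08 ± 0.434 FPKM in soft libraries (0.17), and counting it with the mitochondrial genes leaves the median at -0.02.

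The level filter removed 3 members. Mars2, the mitochondrial methionine enzyme, had at most 4 reads in any library. LOC100911305 and LOC100911132, annotated as like the mitochondrial methionine enzyme and like a glutamine enzyme, had no read in any of the 6 libraries. A count of 0 allows up to 3 reads, or 0.114 FPKM for LOC100911305 and 0.0866 FPKM for LOC100911132, in the library with the highest such limit, by counting error only.

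For 13 amino acids a cytosolic and a mitochondrial enzyme could be set side by side. Yars2 was taken here as the mitochondrial tyrosine enzyme, although its description states no compartment. The cytosolic enzyme was the more abundant in 12 of them, by a median ratio of 5.47 and up to 13.0 for asparagine. Isoleucine was the exception, with Iars at 9.55 and Iars2 at 21.3 FPKM over all libraries. The cytosolic fold change exceeded the mitochondrial one in 11 of 13 amino acids, with a median difference of 0.20 on the log2 scale, and not for arginine or tyrosine. For tryptophan the values were 0.15 for Wars and -0.35 for Wars2, and for asparagine 0.15 for Nars and -0.27 for Nars2. These differences were not tested.

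Serine and histidine enzymes gave smaller differences. Sars2, for serine, had 4.85, 4.37 and 4.54 FPKM in stiff and 5.50, 3.89 and 5.15 FPKM in soft libraries (-0.06), beside 0.15 for Sars. Hars2, for histidine, had 6.48, 6.14 and 6.08 FPKM in stiff and 5.79, 6.52 and 6.82 FPKM in soft libraries (-0.03), beside 0.15 for Hars. Hars and Hars2 lie head to head on chromosome 18 with 96 bases between them in the table's coordinates. Both Sars2 and Hars2 overlapped between groups. With a pseudocount of 0.1, which shrinks low genes less, the mitochondrial median was -0.03 and the cytosolic one 0.15.

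**Figure D4:**
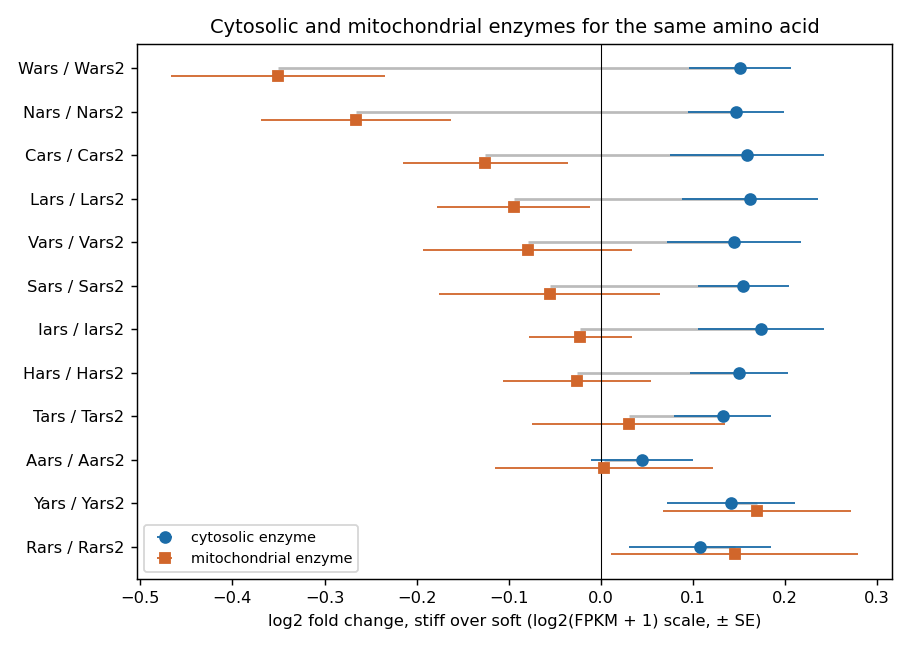
Log2 fold change, stiff over soft, with its standard error for the cytosolic enzyme (circles) and the mitochondrial enzyme (squares) of 12 of the 13 amino acids, ordered by their difference. The circle lies right of the square in 10 of those shown, by most for tryptophan and asparagine.

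The stretch shared by the start regions of Hars and Hars2 is printed because the windows of the 2 genes overlap there. Whether it acts on both genes was not tested. Windows were taken from RefSeq on the GRCr8 build, from 250 bases before to 50 bases after each gene's start, and matched 38 of 45 members. It is given on the plus strand, with the 143 bases between the 2 starts in capitals; Hars runs to the left of them and Hars2 to the right.
Hars and Hars2 (chr18:28672663-28672905): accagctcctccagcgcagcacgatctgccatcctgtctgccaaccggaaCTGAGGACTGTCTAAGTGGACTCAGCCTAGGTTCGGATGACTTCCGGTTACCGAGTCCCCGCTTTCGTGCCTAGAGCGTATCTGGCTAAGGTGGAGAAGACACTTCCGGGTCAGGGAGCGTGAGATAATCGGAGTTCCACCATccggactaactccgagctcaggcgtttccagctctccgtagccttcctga

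The same windows were searched on both strands for TGATGNAA, the core of the element that C/EBP and ATF4 dimers bind. It was present in 7 of 18 cytosolic genes with a window, 38.9%, and in 0 of 15 mitochondrial genes with a window. Counted by window, it was present in 3.35% of 21851 windows of protein-coding genes and in 3.98% of all 33469 windows. Mars2, which the level filter removed, is among these 15 mitochondrial genes and had 3 windows. The 7 windows are shown because no other member's window held the core. Each is printed 5′ to 3′ on its gene's strand with 20 bases on either side where the window allows, and the matched letters are in capitals; on the opposite strand the match reads TTNCATCA.
Aars (chr19:55908350-55908397, plus strand, from -112): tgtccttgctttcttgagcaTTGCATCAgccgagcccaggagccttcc
Aars (chr19:55908471-55908518, plus strand, from 10): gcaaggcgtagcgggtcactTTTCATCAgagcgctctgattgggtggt
Nars (chr18:60275769-60275816, minus strand, from -14): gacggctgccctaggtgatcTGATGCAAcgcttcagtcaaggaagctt
Mars (chr7:65023743-65023790, minus strand, from -17): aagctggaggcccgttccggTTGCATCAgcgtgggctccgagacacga
Tars (chr2:62114802-62114849, minus strand, from -27): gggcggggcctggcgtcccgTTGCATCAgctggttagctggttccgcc
Yars (chr5:146820181-146820212, plus strand, from 39): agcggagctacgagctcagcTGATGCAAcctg
Cars (chr1:208225325-208225372, minus strand, from 18): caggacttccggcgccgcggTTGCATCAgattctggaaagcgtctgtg
Iars (chr17:15193649-15193696, minus strand, from -24): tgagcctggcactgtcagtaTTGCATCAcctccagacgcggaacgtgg

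Positions count from the gene's start, negative before it. Of the 8 matches, 7 have C at the free position on the TGATGNAA strand (TGATGCAA) and the second of Aars has A. No window was matched for 7 members, among them Gars, Dars, Rars and the 3 genes annotated as like another. Among 12 cytosolic enzymes reported as ATF4-induced in mouse cells, 11 had a window and 7 of these held the core, against 0 of 7 windows of the other cytosolic enzymes. Of 24 genes of the amino acid shortage response outside the synthetases with a window, 4 held the core, 16.7%: Trib3, Chac1, Slc7a1 and Nupr1. These 24 differ from the 24 measured genes of the same list described below. They include Nupr1, which was not measured here, and lack Atf3, which was measured but had no window. Asns, Psat1, Phgdh, Slc7a5, Atf5 and Stc2 were among those without it. A match is a description of the letters, not of binding. In these libraries the 7 enzymes with a match had a median log2 fold change of 0.14, from 0.04 to 0.17, and the 11 without a match a median of 0.15, from -0.20 to 0.18, with overlapping ranges. No test was made of this.

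The 12 enzymes of the mouse ATF4 list all lay above 0 except Aars at equal FPKM sums, with a median of 0.15, and 8 were parted with stiff higher, against 11.7% of all tested genes. Of the 9 other cytosolic enzymes 8 lay above 0, with a median of 0.11, and 3 were parted that way. The difference between these lists was not tested. Among 24 measured genes of the amino acid shortage response outside the synthetases, 7 were called higher and none lower, where 1.01% of all tested genes were called higher and 0.425% lower. In that list 19 lay above 0 and 5 below, with a median of 0.17. Parted with stiff higher were 11 and with stiff lower 2, against 11.7% and 10.9% of all tested genes. Across the other settings over all 6 libraries between 4 and 10 were called higher and none lower: 4 without a variance trend, which lost Atf5, Chac1 and Stc2, 5 at equal FPKM sums and 10 with array weights. Atf4 was at 89.5, 98.5 and 100.3 FPKM in stiff and 80.5, 90.4 and 81.3 FPKM in soft libraries (0.19, limma adjusted p = 0.254), and its groups overlapped, as soft replicate 2 lay above stiff replicate 1. The 7 were Trib3, a pseudokinase that feeds back on ATF4 (0.95), Chac1, which degrades glutathione (0.82), the serine synthesis enzymes Psat1 (0.62) and Phgdh (0.54), Slc7a5, a transporter of large neutral amino acids (0.55), the secreted Stc2 (0.38) and Atf5, a relative of Atf4 (0.31), all with limma adjusted p between 0.00508 and 0.0391. Psat1 stayed under the threshold whichever library was left out. Each of the others lost its call in at least 1 such fit: without stiff replicate 1 all 6 did, and over all such fits limma's adjusted p reached 0.159.

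Other genes of that response missed the threshold. Asns, asparagine synthetase, which makes the amino acid and charges no tRNA, had 29.3, 32.6 and 29.1 FPKM in stiff and 23.3, 25.3 and 24.2 FPKM in soft libraries (log2 fold change 0.31, limma adjusted p = 0.0856). Mthfd2 (0.45), Psph (0.45) and Slc7a1 (0.41), which serve one-carbon metabolism, serine synthesis and cationic amino acid uptake, had limma adjusted p of 0.0615, 0.0519 and 0.132. Eif2ak4, the kinase that binds uncharged tRNA, was at 4.82, 4.67 and 4.39 FPKM in stiff and 4.94, 4.87 and 4.96 FPKM in soft libraries (-0.08), parted by a narrow gap. Ddit4 was also parted with stiff lower (-0.19, limma adjusted p = 0.360). Atf3 (-0.10), Slc7a11 (-0.06) and Ddit3 (-0.0070) lay below 0 with overlapping groups. Cebpb, the most abundant of the list, was at 353.8 ± 24.7 FPKM in stiff and 330.5 ± 46.1 FPKM in soft libraries (0.10).

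Genes that make tRNA ready for charging did not pass limma's test or voom. Of 22 measured, 18 had a log2 fold change above 0, with a median of 0.07, but 12 at equal FPKM sums. With an unadjusted p under 0.05, 4 had higher and 1 had lower stiff levels, against 8.46% and 6.95% of all tested genes. Xpot, which exports tRNA from the nucleus, had 25.6, 27.7 and 26.1 FPKM in stiff and 21.7, 24.3 and 23.3 FPKM in soft libraries (0.19, limma adjusted p = 0.233). Trnt1, which adds the CCA end that carries the amino acid, had 11.1, 12.0 and 10.4 FPKM in stiff and 8.44, 10.5 and 10.7 FPKM in soft libraries (0.17). Xpot was parted between groups and Trnt1 was not, since soft replicates 2 and 3 lay above the lowest stiff library. The RNase P subunits Rpp30 (0.35) and Pop4 (0.21) and the splicing subunit Tsen15 (0.16) had higher stiff means, and the most abundant, Rpp14, was at 49.2 ± 1.92 FPKM in stiff and 51.8 ± 1.86 FPKM in soft libraries.

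Editing proteins and mitochondrial partners of charging had a median near that of the whole table. Of 14 measured, 6 lay above 0 with a median of -0.0085, none had an unadjusted p under 0.05 and none passed limma's test or voom. The most abundant, Tufm, which carries charged tRNA to the mitochondrial ribosome, was at 32.4 ± 1.39 FPKM in stiff and 30.4 ± 2.15 FPKM in soft libraries (0.09). Aarsd1 was at 5.91 ± 0.176 FPKM in stiff and 6.26 ± 0.260 FPKM in soft libraries (-0.07), and Prorsd1 at 3.83 ± 0.508 FPKM in stiff and 3.49 ± 0.0925 FPKM in soft libraries (0.10). In the cytosol all 5 measured elongation factors lay above 0 with a median of 0.13 and none passed limma's test or voom. Of these, Eef1a1, which carries charged tRNA to the ribosome, was at 3366.0 ± 56.3 FPKM in stiff and 3177.5 ± 35.5 FPKM in soft libraries (0.08, and -0.046 after quantile normalization). Eef1a1 and its exchange factor subunits Eef1b2 (0.23), Eef1g (0.17) and Eef1d (0.13) were parted with stiff higher, 4 of the 5, against 11.7% of all tested genes. The 3 subunits had an unadjusted p under 0.05 in that direction, where 8.46% of all tested genes did.

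**Figure D5:**
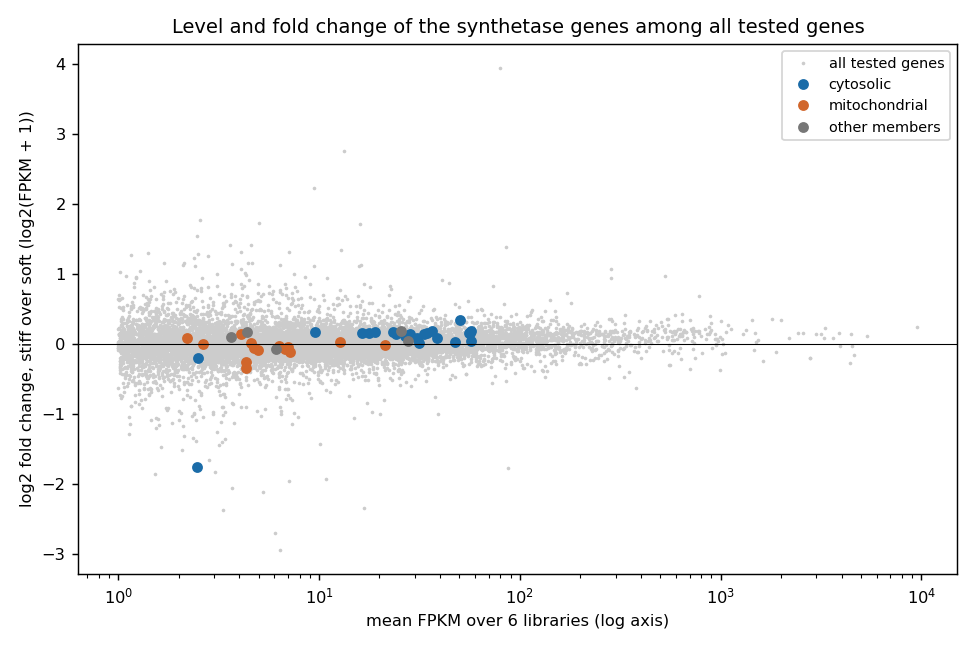
Mean FPKM over the 6 libraries (x axis, log scale) against log2 fold change, stiff over soft (y axis), for all 12713 tested genes (grey) and 41 of the 42 tested members by compartment. Most cytosolic genes form a narrow band just above 0 between 9.55 and 57.4 FPKM, within the spread of the other genes, and the mitochondrial genes lie lower in level on both sides of 0.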

How the data were processed

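The deposited table held FPKM per gene for 6 libraries, computed by the authors. Per the submitters' processing notes Bowtie 0.12.9, Cufflinks 2.1.1 and HTSeq were used; those notes name mouse builds (mm10, GRCm38), the gene identifiers are of rat, and the table itself names no build. Filters, strand and multiple mapping are not given in the sources. FPKM times gene length was a whole multiple of 1 step per library for 100% of values (tolerance 0.0001), which gave read numbers; 3 reads on a 1 kb gene equal 0.179 to 0.201 FPKM.

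With limma 3.58.1 (R 4.3.3), log2(FPKM + 1) was compared between stiff and soft over the 12713 genes averaging 1 FPKM or more, with an intensity trend, two-sided, Benjamini-Hochberg adjusted over all genes at 0.05, and tested on simulated data. This scale understates changes of low genes. Alternatives changed pseudocount, filter, scaling, variance model, weights, gene set, replicate block and library. Voom on recovered reads, removal of a length trend and the summing of Iars with LOC103690033 were chosen after seeing the data. Values in every library are given for members with an unadjusted p under 0.05 and their compartment partner, the 3 most abundant and 2 most negative per compartment; partner genes follow the same p or are the most abundant of their list. Tarsl2 and LOC103690033 are the 2 most negative cytosolic genes. The members and lists were chosen with earlier results of these data known. Promoter windows are RefSeq, GRCr8. Of the genes that the rule names or the figures would show, 2 are not reported here.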

Additional observations from a re-analysis of the deposited data

How the results depend on the processing

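Among summary values under other settings 49 stayed close to those reported and 19 moved, mainly the count of 1 synthetase called higher, Gars. That count was 0 with no level filter, at equal FPKM sums, after quantile normalization, without a variance trend and with the replicate number as a block, 2 with array weights, and 0 with any library left out. The count of 1 called lower was 0 at a mean of at least 5 FPKM, a filter that leaves LOC103690033 out. The cytosolic median of 0.15 became 0.0971 at equal FPKM sums, 0.124 with array weights, 0.127 on quantile-normalized values and 0.119 to 0.140 with 1 library left out. The mitochondrial median of -0.03 became -0.0699 at equal FPKM sums and -0.0723 to -0.00906 with 1 library left out, lowest without soft replicate 2 and highest without soft replicate 1.

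Of the values of single genes, 719 kept their direction and side of the threshold, 48 dropped below it, 11 came above it and 14 changed sign. Signs changed near 0: at equal FPKM sums Aars (-0.00384), Tars2 (-0.0156) and Aimp1 (-0.00881), for Aimp1 also with array weights (-0.00354), for Eef1a1 on quantile-normalized values (-0.0456), and with the length trend removed Aimp1 (-0.000996) and Eif2ak4 (0.00328). With 1 library left out, Tars2 ran between -0.0698 and 0.0982, Aimp1 between -0.00995 and 0.126, Sars2 between -0.18 and 0.0267, Hars2 between -0.0848 and 0.0175 and Iars2 between -0.0438 and 0.00272. The cause was not tested. With the replicate block 105 genes were called in all, in place of 182, and 4 of the amino acid shortage genes rose, in place of 7, with Atf5, Chac1 and Stc2 lost. Deviations of same-numbered libraries correlated at 0.0552, 0.116 and -0.0785, and those of differently numbered ones at -0.184 to 0.137. With 3 libraries per group these values cannot tell whether same-numbered libraries share an animal or a day. Over all genes 685 were called with array weights, 317 with voom, 92 without a level filter, 112 without the variance trend and 26 to 159 with 1 library left out. Voom with TMM was planned and not run. The deposited values are not counts, and the voom fit on recovered reads used the total reads of each library without TMM. Across 12713 genes, which are not independent, gene length and fold change gave a Spearman rho of -0.146; with that trend removed 19 of 22 cytosolic genes lay above 0. Ears2 had as few as 68 reads in a library, which limits what can be seen among mitochondrial enzymes.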
